A study of Mus musculus with 51 samples.

Results

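Of 12871 autosomal peaks of H3K36me3 in the extra-embryonic ectoderm (ExE), 894 overlapped a peak called in both reciprocal wild-type crosses and overlapped no H3K36me3 peak of the epiblast in either cross. These ExE-only regions were chosen from the peak lists alone, so their wild-type H3K36me3 values are given as a description and were not tested. A further 7244 ExE peaks were found in both crosses and also overlapped an epiblast peak, and the other 4733 were found in 1 cross or overlapped none of the lists. The reverse choice, peaks of the epiblast in both crosses with no ExE peak, gave 2464 of 23959 regions.

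The libraries were native low-input ChIP-seq of embryonic day 6.5 mouse embryos, in pools of 4 epiblasts or 8 ExE, with 2 libraries for each mark, tissue and cross. B6/CAST embryos had a C57BL6/Babr mother and a CAST father, CAST/B6 embryos had the reciprocal parents, and both were wild type. The matDKO/CAST embryos had a CAST father and a mother of mixed B6 and 129 background whose floxed Dnmt3a and Dnmt3b alleles were deleted in the oocyte by Zp3-cre, so that the egg lacked both de novo DNA methyltransferases while the embryo received the paternal copies of both genes. The tissues were separated by hand, and a lower signal in bulk chromatin cannot be told apart from fewer cells that carry the mark.

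H3K36me3 is laid down behind elongating RNA polymerase II and covers the bodies of transcribed genes, whereas H3K4me3 marks active or poised promoters and H3K27me3, the product of Polycomb repressive complex 2, marks silenced ones. Promoters rich in CpG dinucleotides are the usual sites of Polycomb binding, and many developmental regulators carry both H3K4me3 and H3K27me3 in pluripotent cells. The ExE is the trophoblast tissue next to the epiblast, holds the trophoblast stem cells, and signals to the epiblast through Bmp4.

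The 894 regions had a median length of 13 kb (range 2 to 123 kb) and covered 16.2 Mb, against a median of 33.5 kb for the ExE peaks shared with the epiblast and 14.5 kb for all ExE peaks. Gene bodies held 83.9% of their bases, and 702 regions lay on a protein-coding gene, 36 on a long non-coding RNA gene and 156 on neither (called regions with no gene here, by the GENCODE annotation). Regions with no gene made up 17.4% here, 18.0% of all ExE peaks and 5.63% of the shared peaks. Altogether the regions named 650 genes of 30233 autosomal genes tested. In 415 of these genes no epiblast peak lay anywhere in the body, and in 235 an epiblast peak lay elsewhere in the same gene. Of the 699 regions whose gene symbol RefSeq also holds, 13 lay outside the RefSeq span of that gene. Such a gene was Fgfr2, whose GENCODE record is far longer than the RefSeq gene, so no promoter value is given for it.

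The promoters of 6 member genes show the kinds of sequence behind the results that follow: 3 with lower H3K27me3 than in the epiblast (Cdx2, Tfap2c and Jak2) and 3 that differed in H3K4me3 and not in H3K27me3 (Slc2a2, Hnf4a and Aqp8). Each line gives the 250 bases before the start site used here, on the strand of the gene, read from GRCm38, with CpG dinucleotides in capitals. Cdx2 is at chr5:147307271-147307520 (minus strand), Tfap2c at chr2:172550403-172550652, Jak2 at chr19:29251578-29251827, Slc2a2 at chr3:28697767-28698016, Hnf4a at chr2:163546937-163547186 and Aqp8 at chr7:123463501-123463750 (all plus strand).
Cdx2: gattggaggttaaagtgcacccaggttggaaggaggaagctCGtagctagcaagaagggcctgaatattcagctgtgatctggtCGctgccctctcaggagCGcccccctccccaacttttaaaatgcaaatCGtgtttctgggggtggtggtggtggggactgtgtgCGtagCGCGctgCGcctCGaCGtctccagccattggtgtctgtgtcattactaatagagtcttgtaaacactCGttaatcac
Tfap2c: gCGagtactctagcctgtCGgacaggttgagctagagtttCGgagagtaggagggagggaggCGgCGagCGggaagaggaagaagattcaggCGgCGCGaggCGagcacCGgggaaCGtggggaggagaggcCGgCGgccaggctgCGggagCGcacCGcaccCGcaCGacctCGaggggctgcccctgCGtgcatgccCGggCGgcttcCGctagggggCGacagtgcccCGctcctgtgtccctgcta
Jak2: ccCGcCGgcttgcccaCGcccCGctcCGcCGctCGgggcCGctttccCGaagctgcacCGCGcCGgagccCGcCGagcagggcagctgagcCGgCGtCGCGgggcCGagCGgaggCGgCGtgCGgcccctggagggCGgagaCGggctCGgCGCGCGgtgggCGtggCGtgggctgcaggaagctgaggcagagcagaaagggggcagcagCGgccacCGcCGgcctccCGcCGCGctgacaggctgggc
Slc2a2: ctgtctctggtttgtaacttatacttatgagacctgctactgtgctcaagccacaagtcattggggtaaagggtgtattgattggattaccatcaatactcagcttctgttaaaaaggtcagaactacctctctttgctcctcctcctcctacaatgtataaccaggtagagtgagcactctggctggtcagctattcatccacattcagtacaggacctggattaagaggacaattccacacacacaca
Hnf4a: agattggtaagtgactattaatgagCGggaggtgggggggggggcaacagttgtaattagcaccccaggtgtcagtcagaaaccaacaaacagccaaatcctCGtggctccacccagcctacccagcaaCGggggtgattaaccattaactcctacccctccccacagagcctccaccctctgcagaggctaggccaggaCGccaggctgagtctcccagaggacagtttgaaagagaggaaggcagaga
Aqp8: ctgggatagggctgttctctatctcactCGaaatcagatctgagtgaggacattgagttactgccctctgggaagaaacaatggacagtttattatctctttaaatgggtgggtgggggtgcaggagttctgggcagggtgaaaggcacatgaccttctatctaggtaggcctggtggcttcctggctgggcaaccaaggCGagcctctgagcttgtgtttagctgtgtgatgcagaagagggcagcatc
These stretches held 11 CpGs for Cdx2, 26 for Tfap2c and 37 for Jak2, but 0 for Slc2a2, 4 for Hnf4a and 2 for Aqp8.

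H3K36me3 over the members was low in the epiblast and moderate in the ExE. In RPKM (reads scaled to window length and library depth), the median over the 894 regions was 0.775 to 0.868 in the 4 wild-type ExE libraries and 0.488 to 0.517 in the 4 wild-type epiblast libraries. Input libraries gave medians of 0.504 to 0.577 over the same regions, so the epiblast values sat at the level of input chromatin. The shared peaks were more strongly marked in the ExE, with library medians of 1.06 to 1.32. In 612 of 894 regions (68.5%) each wild-type ExE library exceeded each epiblast library, where 33.7% of all ExE peaks did. The rule fixed this direction and nothing is read from it.

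**Figure D1:**
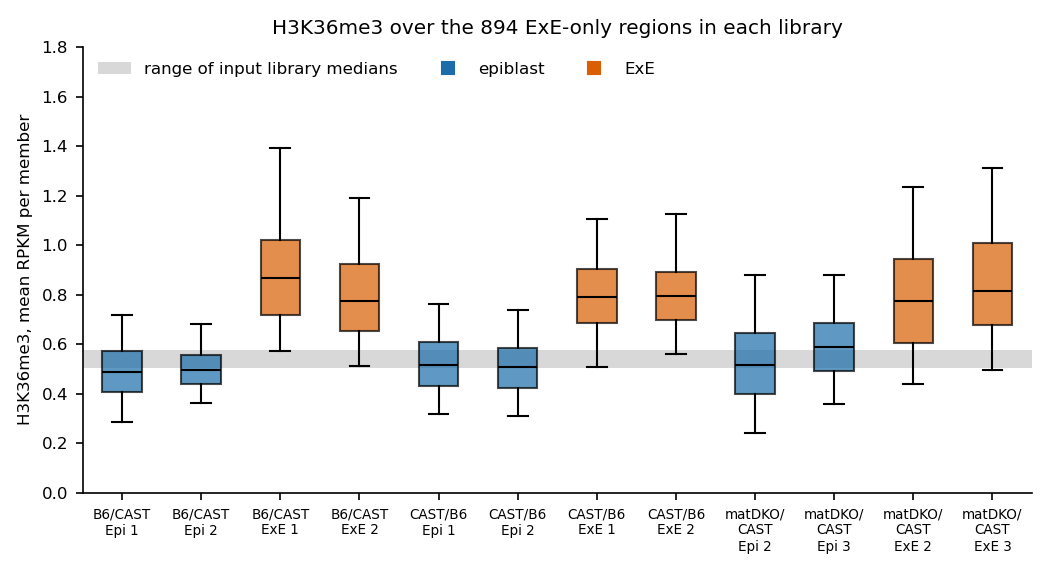
H3K36me3 (mean RPKM, linear axis) over the 894 ExE-only regions in each of 12 libraries, with boxes from the lower to the upper quartile, a line at the median and whiskers at the 5th and 95th percentiles. Wild-type ExE medians lie at 0.775 to 0.868, above the grey band of input medians, and wild-type epiblast medians lie at 0.488 to 0.517, in or below it.

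Sfmbt2, a Polycomb-group gene needed for trophoblast growth, had the highest H3K36me3 of the members on a gene. Its 45.5 kb region in the 3′ part of the gene (chr2:10555001-10600500) measured 2.01 and 1.87 RPKM in B6/CAST ExE and 1.44 and 1.53 in CAST/B6 ExE, against 0.557, 0.480, 0.433 and 0.453 in the 4 epiblast libraries. The groups were far apart, and the mean was 3.57-fold higher in the ExE (1.71 ± 0.27 against 0.481 ± 0.054, SD, n = 4 each).

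Other strongly marked bodies belonged to transcription factors, signalling proteins and metabolic genes. Tfcp2l1, a transcription factor of naive pluripotency that is also present in epithelia, was covered over 58 kb (1.44 ± 0.15 against 0.553 ± 0.038 RPKM, SD, n = 4). Stat3, the effector of cytokine signalling, was covered over 76 kb (1.26 ± 0.18 against 0.480 ± 0.038). Mul1, Cstb, Tmem167b, Hbegf, Tcn2, Slc2a2, Slc7a8, Icmt, Dram1, Car7, Tmem37 and Ndufa8 also stood among the 20 highest, at ExE means of 1.25 to 1.49 RPKM. The longest coverage was on Tspan9 (135.1 kb in all), Trpm6 (121.5 kb), Col27a1 (118.5 kb), Tanc2 (108.5 kb) and Ubash3b (108.4 kb).

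Not each region at the top was a gene body, and 4 of these 20 had no gene. The highest value of all was over a 2 kb stretch at chr19:35303001-35305000 (1.88 ± 0.55 in the ExE and 1.06 ± 0.31 in the epiblast), and a 2.5 kb stretch at chr11:58518001-58520500 was lower in the ExE than in the epiblast (1.25 ± 0.57 against 1.39 ± 0.35). Both are short and their libraries scattered widely. At the edge of the rule, the members closest to an epiblast peak abutted it: Ebf4 (0.953 against 0.730 RPKM), Aamdc (1.04 against 0.465) and Wwox (0.620 against 0.512). The ExE peaks that missed the rule most narrowly overlapped an epiblast peak by 500 bases, namely Bicc1 (0.687 against 0.455), Zfp52 (0.770 against 0.521) and a region without a gene at chr17:64246501-64253500 (0.823 against 0.563). In all, 846 members lay over 5 kb from any epiblast peak.

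Marker genes were measured to check the labelled tissues. Summed H3K36me3 over the bodies of 11 ExE markers was 12.7 to 16.2 RPKM in wild-type ExE and 6.82 to 7.83 in the epiblast. Of these 11, 5 were member genes (Cdx2, Esrrb, Tfap2c, Bmp4 and, by its GENCODE record, Fgfr2). The rule set the direction for those 5, so this sum is only in part a check. For 11 epiblast markers, with 0 member genes, the sum was 9.17 to 12.6 in the ExE and 12.7 to 16.1 in the epiblast. Over 19 visceral endoderm markers the sum was 22.1 to 31.4 in the ExE and 10.6 to 14.2 in the epiblast, with 16 of the 19 higher in each ExE library than in each epiblast library. Among lists described below, the same held for 15 of 22 epithelium and basement membrane genes, 9 of 19 chromatin genes and 7 of 14 nutrient transporters. It held for 0 of 11 epiblast markers and for 33.7% of all ExE peaks. A share over all gene bodies is not given here. Apob, a lipoprotein of endoderm and liver, had 3.45 against 0.760 RPKM over its body, and Cubn, an endocytic receptor of visceral endoderm, had 2.84 against 0.711. Over 6 parietal endoderm markers the sum was 5.58 to 6.85 in the ExE and 3.16 to 4.14 in the epiblast, with 4 of the 6 higher in each ExE library and promoter H3K27me3 lower for 3, and over 11 markers of ectoplacental cone and giant cells it was 4.58 to 6.17 and 3.39 to 4.61. Neither of these lists held a member gene. The ranges for 8 decidua markers (1.73 to 3.54 and 2.74 to 3.14) and for 5 blood markers (0.931 to 1.23 and 1.05 to 1.56) overlapped between the tissues, and of the decidua markers 4 had lower promoter H3K27me3 in the ExE and 3 lower H3K4me3. Of the visceral endoderm markers 4, Afp, Rbp4, Sox17 and Hnf4a, were themselves member genes. Over the 19, promoter H3K4me3 was higher for 6 and lower for 2 (Lrp2 and Cer1), and H3K27me3 was lower for 9 and higher for 0. Of the 4 member genes among them, Hnf4a alone passed for H3K4me3, and Rbp4 and Sox17 for H3K27me3. The part of visceral endoderm, parietal endoderm or decidua cells in the results on members was not tested.

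The first question was whether the promoters of these genes differed between the tissues in marks the rule did not use. Promoter H3K27me3 was lower in the ExE for 217 of the 650 member genes (33.4%, against 8.79% of all genes) and higher for 5 (0.769%, against 6.09%), by limma on log2(RPKM + 0.5) with Benjamini-Hochberg adjustment over all 30233 genes. The median log2 difference was -0.27 over the member genes and -0.03 over all genes. Among 5472 genes that had only shared H3K36me3 peaks, 603 (11%) were lower, and among 707 genes of the epiblast-only regions 34 were lower and 107 higher. Genes with no epiblast H3K36me3 peak in the body (138 of 415, 33.3%) and genes with such a peak elsewhere in the body (79 of 235, 33.6%) gave nearly equal shares. Without the second CAST/B6 ExE library the count of lower promoters was 133 (20.5%, against 3.98% of all genes).

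The median promoter H3K27me3 of the member genes was 0.344 to 0.422 RPKM in wild-type ExE and 0.518 to 0.629 in the epiblast, without overlap, while for all genes the ranges were 0.340 to 0.364 and 0.343 to 0.404. Among the 217 genes with lower H3K27me3, 163 had an H3K27me3 peak at the promoter in the epiblast of both crosses and all 217 an H3K4me3 peak. Of the 163, 110 also had an H3K27me3 peak in the ExE of both crosses. In the epiblast, 34% of the 650 member genes and 18.3% of all genes had both peaks, and 55.8% and 40.3% H3K4me3 alone. A call of lower H3K27me3 needs signal in the epiblast, so the 163 follows in part from the call. The median H3K27me3 of the 217 was 2.23 RPKM in the epiblast and 0.807 in the ExE.

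Cdx2, the homeodomain factor that specifies trophectoderm, had the largest fall. Its promoter H3K27me3 was 4.84 and 6.71 RPKM in B6/CAST epiblast and 9.52 and 8.55 in CAST/B6 epiblast, but 1.18, 1.61, 1.37 and 1.31 in the 4 wild-type ExE libraries. The lowest epiblast library was about 3 times the highest ExE library, and the log2 difference was -2.05 ± 0.19 (SE, adjusted p = 0.000314, limma). Plut, a non-coding RNA gene next to Cdx2 and Pdx1, fell by 1.78 on the log2 scale.

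Jak2, the kinase that carries cytokine signals to Stat proteins, followed. The epiblast libraries read 2.44, 4.36, 4.02 and 3.52 RPKM of H3K27me3 and the ExE libraries 0.725, 0.689, 0.422 and 0.362, again far apart (log2 difference -1.95 ± 0.20, SE, adjusted p = 0.000397, limma). Promoter H3K4me3 of Jak2 was similar in level in both tissues (22.3 ± 2.9 and 19 ± 4.4 RPKM, SD, n = 4, adjusted p = 0.549, limma). Greb1l, Ddah1, Prss16, Ankrd33b and Mapkapk2, a kinase downstream of p38, completed the 8 largest decreases, between -1.89 and -1.77.

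Signalling and lineage genes were among the rest. Bmp4, the ligand that the ExE sends to the epiblast, had 0.962, 1.32, 2.67 and 2.74 RPKM of promoter H3K27me3 in the epiblast and 0.642, 0.528, 0.538 and 0.498 in the ExE. The groups did not overlap, although the CAST/B6 epiblast libraries stood well above those of B6/CAST (log2 difference -1.12 ± 0.13, SE, adjusted p = 0.000740, limma). Pcsk6, a convertase that processes Nodal, Wnt6, Sox21, Rbp4, Sox17 and Sfmbt2 also passed, with log2 differences of -0.92, -0.94, -1.10, -0.91, -0.80 and -0.67. The Sfmbt2 call was lost without the second B6/CAST epiblast or ExE, the first CAST/B6 epiblast or the second CAST/B6 ExE library (adjusted p = 0.0643 to 0.0873, limma), and those of Rbp4 and Sox17 were lost without the second B6/CAST epiblast library (0.0524 and 0.0568), and for Sox17 also without the second B6/CAST or CAST/B6 ExE library (0.0521 and 0.0617). Acvr1, a type I BMP receptor, did not (-0.09, adjusted p = 0.622, limma).

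The 5 promoters with higher H3K27me3 in the ExE were those of Plg (plasminogen, log2 difference 0.83), Trpm4 (0.83), Trappc3 (0.74), Rsph1 (0.65) and Dnmt3l (0.50). All 5 had an H3K27me3 peak in the ExE of both crosses, and in the epiblast only Trpm4 had one, in 1 cross. The 5 became 2 without the second B6/CAST epiblast, the first B6/CAST ExE or the second CAST/B6 epiblast library, and 3 without either CAST/B6 ExE library. The Rsph1 call was lost without any 1 library other than the first B6/CAST epiblast library (adjusted p = 0.0559 to 0.156, limma) and with a pseudocount of 0.1 (0.0557), and the Plg call without the second B6/CAST epiblast, the first B6/CAST ExE or the second CAST/B6 epiblast library (0.0597 to 0.0672).

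Promoter H3K4me3 changed for fewer member genes. It was higher in the ExE for 41 of 650 (6.31%, against 2.66% of all genes) and lower for 13 (2.00%, against 7.59%), with a median log2 difference of 0.08, where the median of all genes was -0.00. The median over the members was -0.02 without the second B6/CAST epiblast library, -0.01 without the CAST/B6 epiblast library numbered 3, -0.0016 without the second CAST/B6 ExE library, and 0.02 to 0.17 without each of the other 5. Of the 41, 38 were genes with no epiblast H3K36me3 peak in the body and 3 had such a peak elsewhere. Genes of shared peaks gave 61 higher and 127 lower of 5472, and genes of the epiblast-only regions gave 4 higher and 244 lower of 707. The counts moved with the scaling. With each library centred on its own median, which moved the median of all genes by 0.40, 552 member promoters (84.9%) were higher and 11 lower, where 53.3% of all genes were higher, and with libraries rescaled between fixed percentiles 356 (54.8%) were higher and 14 lower, where 17.8% of all genes were higher. Leaving out single libraries took the 41 to 21 (without the first B6/CAST ExE library), 26 (without the second CAST/B6 ExE library) or 27 (without the second B6/CAST epiblast library). The 13 became 4 without the second B6/CAST ExE or the first CAST/B6 ExE library, 5 without the first B6/CAST ExE, the first B6/CAST epiblast or the CAST/B6 epiblast library numbered 2, and 8 without the second B6/CAST epiblast library.

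**Figure D2:**
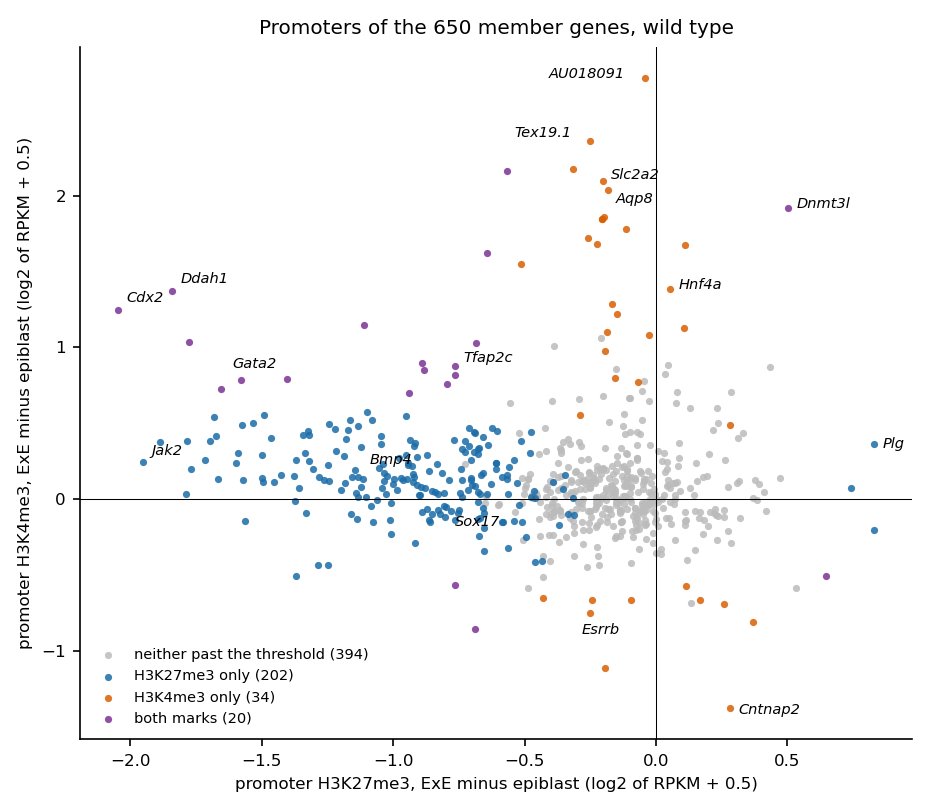
Difference in promoter H3K4me3 (vertical) against the difference in promoter H3K27me3 (horizontal), ExE minus epiblast in wild type, on the log2(RPKM + 0.5) scale, 1 point for each of 650 member genes, coloured by which mark passed an adjusted p of 0.05. The points spread to the left along the H3K27me3 axis, where 217 genes were lower, and a separate column near 0 on that axis rises to AU018091 at 2.77.

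The calls for the 2 marks overlapped in part. In 16 genes H3K4me3 was higher and H3K27me3 lower, in 25 H3K4me3 was higher without lower H3K27me3, in 199 H3K27me3 was lower with no call for H3K4me3, in 2 (Esrrg, whose H3K27me3 call was lost on leaving out any 1 of the 8 libraries, and Kcnk13, whose H3K4me3 call was lost with the replicate block) both were lower, and in 394 neither passed. By peak calls, 54 member genes (8.31%) went from both marks in the epiblast to H3K4me3 alone in the ExE, where 1.28% of all genes did, and 20 (3.08%, against 1.23%) went from neither mark to H3K4me3 alone. In 37 (5.69%) the opposite step, from H3K4me3 alone to both marks, was found, against 5.73% of all genes, and 324 (49.8%, against 33.4%) kept H3K4me3 alone and 167 (25.7%, against 16.5%) both marks.

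Trophoblast regulators stood among the 16 genes. For Cdx2, promoter H3K4me3 was 14.6 and 9.21 RPKM in B6/CAST epiblast and 16.3 and 7.47 in CAST/B6 epiblast, and 25.9, 22.0, 28.2 and 35.6 in the ExE. No epiblast library reached an ExE library (log2 difference 1.24 ± 0.26, SE, adjusted p = 0.0147, limma). The adjusted p was 0.0566 without the second B6/CAST epiblast library and 0.0599 without the first B6/CAST ExE library.

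Tfap2c, a trophoblast factor of the AP-2 family, had 22.1, 16.6, 11.9 and 12.8 RPKM of H3K4me3 in the epiblast and 31.9, 25.9, 26.5 and 31.2 in the ExE (0.88 ± 0.17, adjusted p = 0.00936, limma). Its H3K27me3 was 3.70, 5.42, 8.76 and 7.52 in the epiblast and 3.05, 2.69, 3.97 and 3.90 in the ExE (-0.76 ± 0.17, adjusted p = 0.0146, limma). H3K4me3 was separated in all libraries, whereas for H3K27me3 the lowest epiblast library fell below the highest ExE library. The H3K27me3 call of Tfap2c missed the threshold on leaving out any of 5 libraries (adjusted p = 0.0509 to 0.0641, limma), namely the second B6/CAST epiblast or ExE, the first CAST/B6 epiblast, or either CAST/B6 ExE library.

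Gata2, a zinc-finger factor of trophoblast and blood, differed more in H3K27me3, from 6.86, 7.88, 11.7 and 10.6 RPKM in the epiblast to 3.17, 2.5, 2.78 and 2.40 in the ExE (-1.58 ± 0.15, adjusted p = 0.000316, limma). Its H3K4me3 was 14.0, 14.3, 8.86 and 6.95 in the epiblast and 22.3, 15.5, 17.8 and 19.3 in the ExE (0.78 ± 0.14, adjusted p = 0.00746, limma). This last call was not kept when the replicate number was a block (adjusted p = 0.0716). The other genes of the 16 were Zfp936, H19, Ddah1, Tinagl1, Plut, Prr23a3, Palm3, Duox2, Itga7, Bmp6, Reep6, Hbegf and Wnt6, with H3K4me3 differences of 0.70 to 2.16. The H3K4me3 call of Wnt6 was lost without the second B6/CAST epiblast, the first B6/CAST ExE, the CAST/B6 epiblast numbered 2 or the second CAST/B6 ExE library (adjusted p = 0.0530 to 0.0739, limma), and that of Plut without the first B6/CAST ExE library (0.0540). The H3K27me3 call of Zfp936 was lost without the second B6/CAST epiblast, the first B6/CAST ExE, either CAST/B6 epiblast or the second CAST/B6 ExE library (0.0565 to 0.0978), and neither mark of Zfp936 passed at the upstream end of its gene record (0.339 for H3K4me3 and 0.808 for H3K27me3).

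Of 17 measured trophoblast stem cell regulators, 5 had an ExE-only region, namely Cdx2, Esrrb, Tfap2c, Gata2 and Sox21. Over the whole list, promoter H3K4me3 was higher for 7 and lower for 1, H3K27me3 was lower for 11 and higher for 0, and the medians were 0.67 and -1.10. The 1 lower H3K4me3 promoter was that of Esrrb, an orphan nuclear receptor of trophoblast stem cells, at 12.3, 11, 8.55 and 7.17 RPKM in the epiblast and 8.59, 7.43, 3.69 and 3.73 in the ExE. The ranges overlapped across the crosses, but within each cross both ExE libraries were below both epiblast libraries (-0.75 ± 0.11, SE, adjusted p = 0.00342, limma). At the upstream end of the gene record the Esrrb difference did not pass (adjusted p = 0.128). The body of Esrrb carried 56 kb of ExE-only H3K36me3 at 0.978 ± 0.117 RPKM against 0.436 ± 0.037.

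The other lists are given by their counts. Member genes made up 2.15% of all genes, and promoters called over all genes were 2.66% higher and 7.59% lower for H3K4me3, and 6.09% higher and 8.79% lower for H3K27me3. The BMP, Nodal and convertase list had 3 member genes of 22 measured (H3K4me3 higher for 2 and lower for 3, H3K27me3 lower for 9 and higher for 1). The FGF and ERK list had 1 of 19 (Fgfr2, by its GENCODE record), with H3K4me3 lower for 1 and H3K27me3 lower for 3. The Wnt list had 1 of 15 (Wnt6), with H3K4me3 higher for 2 and lower for 1, and H3K27me3 higher for 1 and lower for 3. The epithelium and basement membrane list had 1 of 22 (Nid1, nidogen), with H3K4me3 higher for 3 and H3K27me3 lower for 6. None of 14 nutrient transporters was a member, and H3K4me3 was higher for 2 and lower for 0 of them and H3K27me3 higher for 1 and lower for 0. Slc2a2 and Slc7a8, transporters with an ExE-only region, were not on that list. The list of genes imprinted in extra-embryonic tissue had 3 of 22 (H3K4me3 higher for 2 and lower for 2, H3K27me3 lower for 10 and higher for 1), and the chromatin list 1 of 19 (Dnmt3l), with 1 promoter in each direction for H3K4me3 and 2 in each for H3K27me3.

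The 25 genes with higher H3K4me3 and no loss of H3K27me3 had little H3K27me3 in either tissue, at a median of 0.366 RPKM in the epiblast and 0.283 in the ExE. Only 1 of the 25 had an H3K27me3 peak in the epiblast of both crosses, and 12 had an H3K4me3 peak there. In the ExE of both crosses 3 of the 25 had an H3K27me3 peak, and 1 of the 25, Dnmt3l, was called higher in ExE H3K27me3. AU018091 changed most, from 1.03, 0.5, 0.0506 and 0.149 RPKM of H3K4me3 in the epiblast to 7.29, 5.50, 4.33 and 4.74 in the ExE (2.77 ± 0.25, SE, adjusted p = 0.00100, limma). Tex19.1, a gene of germ cells and placenta, differed by 2.36, Gm32885 by 2.17 and Hsd17b2, a steroid dehydrogenase, by 1.86.

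Slc2a2 and Hnf4a were also among the 25. Slc2a2, the glucose transporter GLUT2, had 2.91, 0.432, 0.911 and 0.523 RPKM of H3K4me3 in the epiblast and 7.96, 5.66, 4.06 and 5.95 in the ExE (2.10 ± 0.42, adjusted p = 0.0128, and 0.0594 with the replicate block, limma). Hnf4a, a nuclear receptor of visceral endoderm and liver, had 7.12, 2.64, 4.35 and 5.23 against 14.3, 12.1, 9.92 and 15.3 (1.38 ± 0.31, adjusted p = 0.0217, and 0.0522 with the block, limma). In both genes each ExE library exceeded each epiblast library. At the upstream end of the gene record the Hnf4a difference did not pass (adjusted p = 0.0595, limma). The Hnf4a call was lost without any of 5 libraries, namely the second B6/CAST epiblast, either B6/CAST ExE, the CAST/B6 epiblast numbered 2 or the second CAST/B6 ExE (adjusted p = 0.0553 to 0.0793, limma), and the Slc2a2 call without the first B6/CAST ExE library (0.0548). Aqp8, a water channel, differed by 2.03, and Fga, A1cf, Prodh2 and Cdhr2 by 1.08 to 1.72, of which the Fga call was lost with the block (adjusted p = 0.104). The summed visceral endoderm markers given above moved the same way between the tissues, and their part in these differences was not tested.

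**Figure D3:**
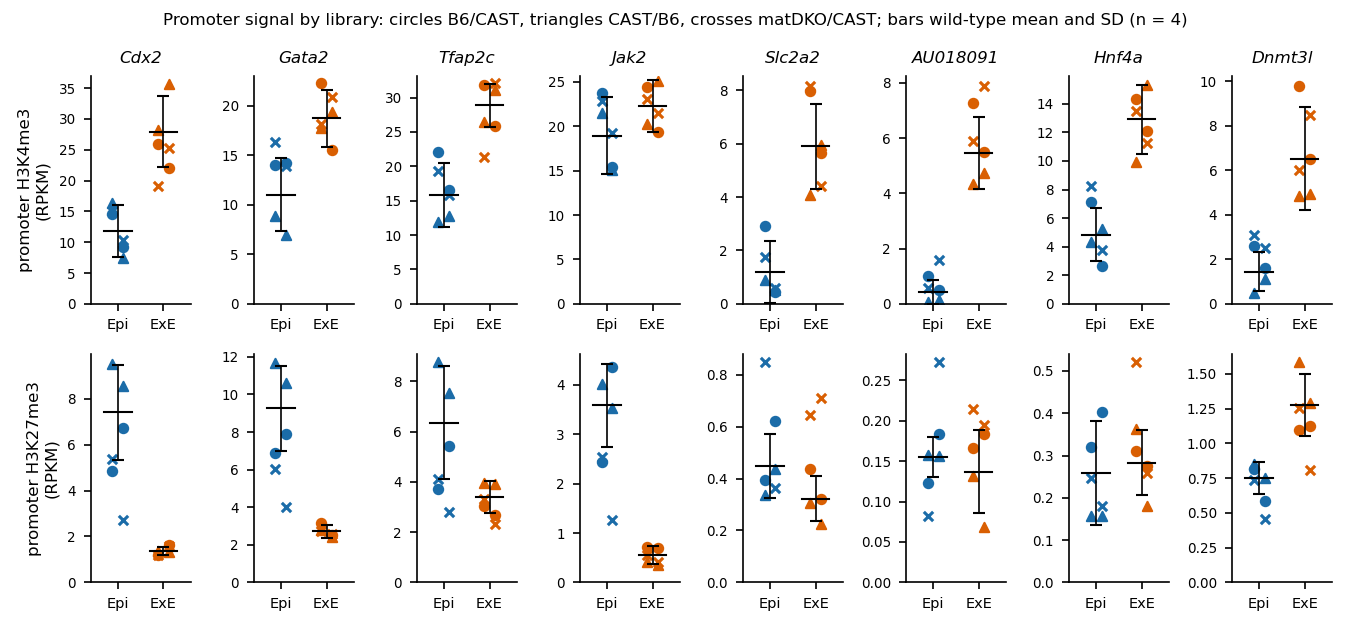
Promoter H3K4me3 (top) and H3K27me3 (bottom) in RPKM for 8 member genes, 1 point per library, with the wild-type mean and SD (n = 4) in each tissue. Cdx2, Gata2 and Tfap2c were higher in ExE H3K4me3 and lower in ExE H3K27me3, Jak2 was lower in H3K27me3 alone, and Slc2a2, AU018091 and Hnf4a had H3K27me3 means under 0.5 RPKM in both tissues.

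Dnmt3l, the catalytically inactive partner of the de novo DNA methyltransferases, was the only gene in which both marks were higher in the ExE. H3K4me3 was 2.59, 1.59, 0.481 and 1.12 RPKM in the epiblast and 9.79, 6.51, 4.86 and 4.94 in the ExE (1.92 ± 0.23, adjusted p = 0.00137, limma). H3K27me3 was 0.814, 0.586, 0.854 and 0.749 in the epiblast and 1.10, 1.13, 1.59 and 1.29 in the ExE (0.50 ± 0.14, adjusted p = 0.0392, limma). Neither mark overlapped between the tissues. With libraries rescaled between percentiles, H3K27me3 did not pass (adjusted p = 0.0531, limma). The H3K27me3 call was lost on leaving out any 1 library other than the first B6/CAST epiblast library (adjusted p = 0.0767 to 0.135, limma), and at the upstream end of the gene record in place of the start site used here neither mark passed (adjusted p = 0.475 for H3K4me3 and 0.128 for H3K27me3).

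Besides Esrrb, the promoters with the largest lower H3K4me3 in the ExE were Cntnap2 (-1.37), Kcnab1 (-1.11), Esrrg (-0.85), Rftn2 (-0.81), Adamtsl1 (-0.69), Trerf1 (-0.67) and Nav1 (-0.67). With the replicate block, Kcnab1, Trerf1 and Nav1 missed the threshold (adjusted p = 0.0545, 0.0513 and 0.0516, limma). Without any 1 library other than the CAST/B6 epiblast numbered 3, Adamtsl1 lost its call (0.0565 to 0.146), and without any 1 library other than that and the second CAST/B6 ExE, so did Rftn2 (0.0708 to 0.111) and Nav1 (0.0580 to 0.106). Trerf1 lost its call without either B6/CAST ExE, the CAST/B6 epiblast numbered 2 or the first CAST/B6 ExE library (0.0503 to 0.0582), and at the upstream end of the gene record neither Trerf1 nor Nav1 passed (0.162 and 0.920). Their ExE-only regions lay inside long genes, and 5 of these 7 genes had an epiblast H3K36me3 peak elsewhere in the body.

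CpG content differed between these classes of promoter. Observed over expected CpG in the 300 bases around the start (250 before and 50 after) had a median of 0.785 for the 217 promoters with lower H3K27me3 and 0.343 for the 25 with higher H3K4me3 and no lower H3K27me3, and was at least 0.6 in 175 of 217 and 1 of 25. The 16 genes with both changes lay between them at 0.654, the 394 with neither were at 0.742, all member genes at 0.740 and all 30233 genes at 0.461. The printed promoters show the contrast, from 49 CpGs in 300 bases for Jak2 to 1 for Slc2a2. No test was made of it, since the classes were formed from the same promoters.

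**Figure D4:**
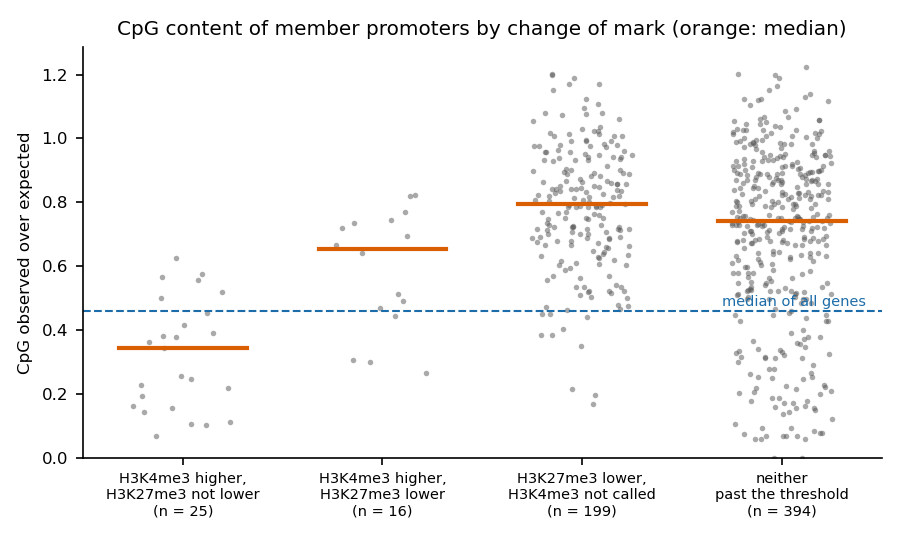
CpG observed over expected in the 300 bases around the start site (vertical), 1 point per member promoter, for 4 outcomes of the H3K4me3 and H3K27me3 tests, with the median of each in orange and the median of all genes dashed. The promoters with higher H3K4me3 and no lower H3K27me3 (n = 25) have a median of 0.343, under that of all genes, and those with lower H3K27me3 and no H3K4me3 call (n = 199) one of 0.794.

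Short motifs were counted in the same 300 bases. The AP-2 half-site pair GCCNNNGGC, searched on both strands, was in 37.8% of promoters with lower H3K27me3, 16% of those 25, 29.5% of member promoters and 18.0% of all promoters of the same length. TATAAA was in 2.76%, 20%, 4.31% and 12.2%, and the GATA motif AGATAA in 2.76%, 4%, 5.08% and 10.3%. The motifs CAAAGTCCA and TCAAGGTCA, bound by HNF4 and ESRRB, were each in 2 member promoters (0.308%, against 0.427% and 0.519% of all). A match says only that the letters are present.

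The matDKO/CAST libraries, which played no part in the choice of regions, gave a second look at the H3K36me3. Members had medians of 0.773 and 0.814 RPKM in the 2 ExE libraries and 0.517 and 0.588 in the 2 epiblast libraries. H3K36me3 was higher in the ExE for 276 of 894 members (30.9%, against 23.8% of all 12871 ExE peaks) and lower for 2 (0.224%, against 2.65%), by limma with adjustment over all peaks. Shared peaks gave 33.9% higher and the other ExE peaks 7.04%, so the share of the members was near that of the shared peaks and not particular to them. The median log2 difference was 0.31 over members, 0.26 over shared peaks and 0.21 over all. In 575 members (64.3%) both ExE libraries were above both epiblast libraries, against 51.1% of all peaks and 67.0% of shared peaks.

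The contrast was between 4 libraries, with the spread taken from all 12 H3K36me3 libraries, and the calls moved with the scaling. Centring each library on its median, which moved the median of all peaks by -0.16, left 55 higher (6.15%, against 5.26% of all peaks) and 3 lower, and rescaling between percentiles, which moved it by -0.30, left 9 higher (1.01%, against 0.684%) and 3 lower. With 1 library left out, the lone library of that tissue was assumed to vary like the other groups. Fewer members were higher without the epiblast library numbered 2, the shallowest at 2.1 M reads, or without either ExE library. Without that epiblast library the median log2 difference was 0.27 over members and 0.19 over all peaks. It was 0.35 and 0.24 without the ExE library numbered 2, and 0.28 and 0.18 without the ExE library numbered 3. The 2 lower became 1 without epiblast library 2, 5 without epiblast library 3 and 0 without ExE library 2. Of single members, Sfmbt2 measured 1.36 and 1.71 RPKM in matDKO/CAST ExE and 0.5 and 0.697 in the epiblast, clearly apart (0.89 ± 0.11, SE, adjusted p = 0.00642, limma). Stat3 (0.68), Dram1 (0.82), Tcn2 (0.79) and Tfcp2l1 (0.68) also passed. The largest differences were over Sox17 (1.27), Fgfr4 (1.14), Tinagl1 (0.98), a region with no gene at chr13:65689501-65693500 (0.98) and Gm36543 (0.94). The smallest were over Mdfic (-0.56), C8a (-0.40) and regions with no gene on chromosomes 8, 15 and 2 (-0.53, -0.41 and -0.39).

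All 41 genes with higher H3K4me3 and all 13 with lower H3K4me3 had the same sign there, and 198 of the 217 with lower H3K27me3 did. These signs are not set against those of all called genes, so nothing particular to the members is read from them. The median H3K27me3 difference over the member genes was -0.14 in matDKO/CAST and -0.27 in wild type, where all genes had 0.08 and -0.03, and for H3K4me3 it was 0.12 and 0.08. In the contrast between the 4 matDKO/CAST libraries of each mark, with the spread taken from all 12, 12 member promoters were higher in H3K4me3 (against 0.665% of all genes) and 7 lower (4.73%), and 42 were lower in H3K27me3 (6.46%, against 1.05%) and 0 higher (0.744%). No member and no other gene passed a test of the difference between matDKO/CAST and wild type in the tissue effect, for either mark (limma, adjusted over all genes). At an unadjusted p under 0.05 it was met by 4 members for H3K4me3 (0.615%, against 1.99% of all genes) and 93 for H3K27me3 (14.3%, against 10.5% of all genes). The difference between B6/CAST and CAST/B6 likewise gave 0 calls, with 2 members for H3K4me3 (0.308%, against 1.40% of all genes) and 32 for H3K27me3 (4.92%, against 3.44%) at an unadjusted p under 0.05.

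Parental origin was read from reads that cover a B6 or CAST variant. Of the members, 617 were informative, of 7980 informative ExE peaks, with 75 to 1914 such reads over the 4 wild-type ExE libraries (median 220). Over them together, the paternal genome gave 49.0% and 49.7% of reads in B6/CAST ExE, and 51.4% and 51.1% in CAST/B6 ExE. Of the informative members, 6 (0.972%) had a parental bias in both crosses (edgeR quasi-likelihood test per cross), against 0.251% of all informative peaks, either parent counted. All 6 were paternally biased and 0 were maternally biased. They were 1 region each on Sfmbt2, Gm9873, Gm12569 and Platr20 and 2 on Smoc1.

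Sfmbt2 H3K36me3 was 89.4% and 86.5% paternal in B6/CAST ExE, 86.7% and 84.9% in CAST/B6 and 86.5% and 86.9% in matDKO/CAST. The 95% Wilson intervals of the 4 wild-type libraries, which cover counting error only, lay between 80.5% and 91.9%, and the matDKO/CAST shares fell among them. The adjusted p was 2.92e-93 and 2.07e-64 in the 2 crosses (edgeR).

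Gm9873, a non-coding gene, was 67.0% to 75.2% paternal in wild type (intervals from 60.4% to 81.7%, adjusted p = 2.17e-15 and 2.44e-10, edgeR). In matDKO/CAST its share was 58.2% and 51.9%, below each wild-type library, with the intervals of these 2 libraries reaching from 45.9% to 66%. This difference between genotypes was not tested, and the allele assignment differed between the genotypes, as matDKO/CAST reads were also aligned to the 129 genome. Gm12569 and Platr20, which share a start region on chromosome 11, were 60.9% to 71.4% and 61.5% to 82.4% paternal in wild type. The 2 Smoc1 regions were 55.3% to 75.0% (at the start of the gene) and 64.4% to 76.7% (within the body). In matDKO/CAST the shares were 79.4% and 64.8% for Gm12569, 76.9% and 52.6% for Platr20, and 67.9% and 59.4% and then 66.7% and 67.7% for the 2 Smoc1 regions, from 13 to 64 reads in a library. With DESeq2 in place of edgeR, Sfmbt2 and Gm9873 alone remained, and the same pair alone remained without the first B6/CAST library. Without the second CAST/B6 library 3 remained. In these fits with 1 library left in a cross, both crosses shared the estimate of spread. With the replicate block the calls of Platr20 and of both Smoc1 regions were lost and 1 other region entered, which gave 4.

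**Figure D5:**
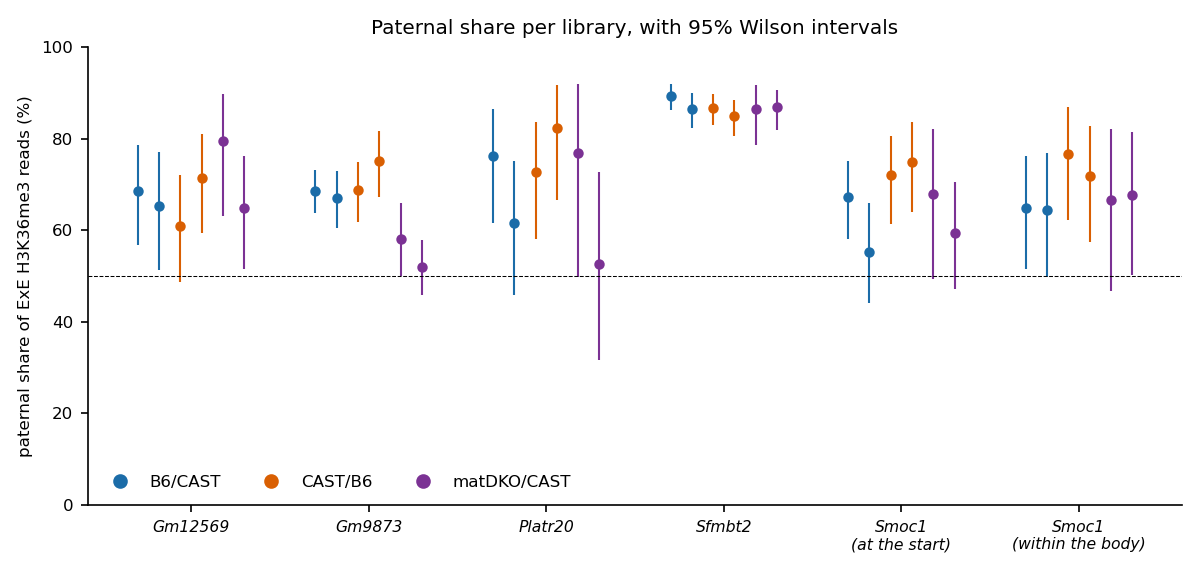
Paternal share of H3K36me3 reads in each ExE library (percent) for the 6 paternally biased members, with 95% Wilson intervals and a dashed line at equal shares. Sfmbt2 lies at 84.9% to 89.4% in wild type, and Gm9873 lies at 67.0% to 75.2% in wild type and at 58.2% and 51.9% in matDKO/CAST.

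A bias that followed the strain was found for 12 members (1.94%, against 1.1% of all informative peaks), 9 towards CAST and 3 towards B6. Those with the most reads were Slc37a1, Rgs3 and a region with no gene at chr9:57194501-57218500 (towards CAST), and AC116759.2 and Tex15 (towards B6). For Tex15 the paternal share ranged from 28.8% to 77.8% between the crosses, and for Slc37a1 from 41.0% to 61.2%. With DESeq2 there were 0 (10 members at an unadjusted p under 0.05, where edgeR gave 31). With the replicate block AC116759.2 was lost and 1 other region entered, so that the count stayed at 12. The 12 became 5 without the first B6/CAST library, and 1 or 3 without the first or the second CAST/B6 library.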

How the data were processed

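Native ChIP-seq reads were trimmed by the authors with Trim Galore 0.4.4 and aligned with Bowtie2 2.3.2 to GRCm38 masked at strain variants (versions per the submitters' processing notes), then split by allele with SNPsplit. From the wild-type libraries the authors called peaks with chromstaR, which fits a hidden Markov model, separately in each cross and tissue. The score column of the deposited peak lists holds 0 on each line and was not used to rank peaks. The lists were merged per mark and tissue, and raw read counts per peak and allele were deposited by the authors. They also deposited RPKM values in 1 kb windows. In matDKO/CAST they left out variants that 129 shares with CAST, and reads assigned to 129 in a second alignment were added to the maternal counts.

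The members and gene lists were chosen with earlier results of these data known. Peaks were assigned to genes by GENCODE vM21, and the RPKM of windows was averaged over each region, or over 1 kb to either side of the start site. Values were tested as log2(RPKM + 0.5) with limma 3.58.1 over all genes or peaks and Benjamini-Hochberg adjustment (threshold 0.05), allelic counts with edgeR 4.0.16 over peaks with at least 20 reads of 1 allele in at least 1 wild-type ExE library, and DESeq2 1.42.0 was the alternative. Depth was 2.1 to 90.6 M reads over 51 libraries. The labels name pools of embryos and no litters, so p-values measure the spread between pools. Genes named were those with the largest called differences, members of the lists, and the 20 members highest in ExE H3K36me3, of which 1 is not reported here. For H3K4me3, libraries of both tissues with the same replicate number deviated together (r = 0.35 to 0.52), so the replicate number was also used as a block. Scripts were tested on simulated data.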

Additional observations from a re-analysis of the deposited data

Results flagged for a closer look

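The values of 2 regions stood apart from the other libraries of their group. H3K36me3 over the Esrrb region in the epiblast was 0.380 RPKM in CAST/B6 replicate 2 and 0.453 to 0.455 in the other 3 libraries. H3K36me3 over the Jak2 region in the epiblast was 0.541 RPKM in CAST/B6 replicate 1 and 0.458 to 0.466 in the others. The gap to the nearest library was above the 95% critical value of Dixon's test in 2 of 72 groups of 4 examined, and chance flags about 1 in 20 groups.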

How the results depend on the processing

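The count of 41 member promoters with higher H3K4me3 became 73 (12% of those tested, against 5.57% of all genes) with a mean of at least 0.5 RPKM required, 552 with each library centred on its median, 356 when rescaled between the 40th and 99th percentile, 154 (23.7%, against 7.08%) with edgeR on recovered reads and 12 in matDKO/CAST, and ranged from 21 to 46 on leaving out 1 library. The 13 with lower H3K4me3 became 31 with edgeR (4.77%, against 12.7% of all genes) and 6 of the 415 genes with no epiblast H3K36me3 peak (1.45%). They became 7 in matDKO/CAST (1.08%, against 4.73% of all genes), and ranged from 4 to 11 on leaving out 1 wild-type library. The 217 with lower H3K27me3 (33.4%) became 138 of the 415 genes with no epiblast H3K36me3 peak (33.3%), nearly the same share. They became 42 in matDKO/CAST (6.46%, against 1.05% of all genes), with a range of 133 to 207 on leaving out 1 wild-type library. The 5 with higher H3K27me3 became 11 under the filter (3.5%, against 25.2% of all genes) and 11 when centred (1.69%, against 10.3%). They became 16 with edgeR (2.46%, against 12.4%) and 10 at the upstream end of the gene record (1.54%, against 6.2%). With windows within 2 kb they became 13 (2%, against 9%). There were 0 in matDKO/CAST (limma, against 0.744%), and the range on leaving out 1 wild-type library was 2 to 6. In matDKO/CAST, the 276 members with higher H3K36me3 became 55 when centred, 9 when rescaled and 48 (5.37%, against 3.29% of all peaks) with edgeR (range 56 to 293), and the 2 lower became 1 with a pseudocount of 0.1 (range 0 to 5). The 6 members with parental bias became 2 and the 12 with strain bias 0 with DESeq2, and the ranges on leaving out 1 library were 2 to 5 and 1 to 8. The cause was not tested in any of these. Of the listed and largest called genes, 26 H3K4me3 and 24 H3K27me3 calls were recomputed under the alternatives in wild type, and none changed direction. These calls had already passed, and each alternative used the same libraries or all but 1, so the direction was nearly fixed beforehand. With the replicate block 8 of the 26 and 0 of the 24 calls were lost. At the upstream end of the gene record 6 and 2 were lost. In matDKO/CAST 198 of the 217 lower H3K27me3 promoters had the same sign, which is not set against the share among all called genes. The alternative in matDKO/CAST was chosen after seeing the data. Depth was lowest in the matDKO/CAST H3K36me3 comparison, with 2.1 M reads in 1 library.

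With the replicate number as a block, H3K4me3 was higher for 41 and lower for 10 member promoters, with 31 of the 41 and 7 of the 13 among them. H3K27me3 was lower for 253 and higher for 9, H3K36me3 in matDKO/CAST was higher for 272 and lower for 1, and allelic bias was parental for 4 and by strain for 12 members, not all of them the same members. For H3K27me3 and H3K36me3, libraries with the same number did not deviate together (r from -0.16 to 0.10), so they share only a number. The H3K4me3 calls of Nid1 and Rsph1 were also lost with the block (adjusted p = 0.151 and 0.0634, limma). That of Nid1 was lost too without any 1 library other than the first B6/CAST epiblast library. The Rsph1 call was lost without any 1 library other than the second B6/CAST epiblast and the second CAST/B6 ExE library. It was also lost with libraries centred on their medians (adjusted p = 0.319, limma).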
